A study of Mus musculus with 11 samples.

Results

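The cathepsins and calpains described here are 10 genes of intracellular proteolysis measured in the tibialis anterior of the mouse, the fast-twitch muscle at the front of the shin. They are the lysosomal cathepsins Ctsl, Ctsb, Ctss, Ctsk, Ctsz and Ctsd, the calcium-activated proteases Capn1, Capn2 and Capn3, and Cast, which encodes the calpain inhibitor calpastatin. The members were chosen by symbol, as every probe set that the array annotation assigns to one of these genes, and came to 21 of 45101 probe sets and to 10 of the 18194 genes named by probe sets with a single symbol. The study hybridised RNA to 11 Affymetrix arrays, which fall into 4 groups. Innervated and denervated muscle of control mice, which carry 1 floxed and 1 null allele of the transcription factor gene Runx1 (runx1f/-), gave 3 arrays each. Innervated and denervated muscle of runx1f/- mice that also carry MCK::cre, called the mutant below, gave 2 and 3 arrays. MCK is the muscle creatine kinase promoter and drives Cre in muscle fibres, so that cells of other types in the muscle keep the floxed allele. All animals of both genotypes thus carry a single functional copy of Runx1 outside the recombined cells, and the mutant alone carries Cre, so that the effect of Cre itself cannot be told apart from that of the deletion. Denervated muscle was taken 3 days after denervation by the sample titles, although a note on denervated control 3 gives 5 days. Ages are not given in the sources used here, and the labels do not say that the arrays of a group came from separate animals, so the p-values measure the spread between these samples, which may be technical.

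Cathepsins are proteases of the lysosome that degrade proteins delivered by endocytosis and autophagy; most are cysteine proteases, whereas cathepsin D is an aspartic protease. Calpains cut a limited number of bonds in cytosolic and cytoskeletal proteins when calcium rises: calpain 1 and calpain 2 are ubiquitous catalytic subunits that pair with a small regulatory subunit, and calpain 3 is the muscle calpain that binds titin and whose loss causes a limb girdle muscular dystrophy. Calpastatin inhibits calpain 1 and calpain 2. Cathepsin L mRNA is a familiar marker of muscle wasting.

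The start regions of Ctsl, Ctsd and Capn3, whose changes after denervation were among the steadiest of the members, are shown first, since promoters of lysosomal genes are known to carry the E-box CACGTG bound by TFEB and related factors, and since RUNX proteins bind TGTGGT and myogenic factors CAGCTG. The windows are RefSeq sequences of build GRCm38.p6, 300 bases long, from 250 bases before to 50 after a transcription start. RefSeq windows were matched for 9 of 10 members, 14 in all, and not for Ctsb. Each is printed 5' to 3' on the strand of the gene, in lower case with any match to these motifs or to GTAAACA, the site of FoxO factors, on either strand, in capitals. No motif contains another, though matches can overlap by chance. Ctsl and Ctsd are among the cathepsins that rose, and theirs are the only member windows with CACGTG. The windows of Ctsz, which rose in control, and of Ctss, which rose in the mutant, hold none. Both start regions of Capn3 are shown, and Capn1 and Cast fell in control as well.
Ctsl, chr13:64370471-64370770, strand minus: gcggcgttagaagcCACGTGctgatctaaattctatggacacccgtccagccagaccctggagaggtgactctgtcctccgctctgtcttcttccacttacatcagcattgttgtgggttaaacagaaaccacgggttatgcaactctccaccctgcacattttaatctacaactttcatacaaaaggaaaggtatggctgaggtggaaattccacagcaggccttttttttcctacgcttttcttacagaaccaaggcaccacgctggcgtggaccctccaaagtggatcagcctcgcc
Ctsd, chr7:142387778-142388077, strand minus: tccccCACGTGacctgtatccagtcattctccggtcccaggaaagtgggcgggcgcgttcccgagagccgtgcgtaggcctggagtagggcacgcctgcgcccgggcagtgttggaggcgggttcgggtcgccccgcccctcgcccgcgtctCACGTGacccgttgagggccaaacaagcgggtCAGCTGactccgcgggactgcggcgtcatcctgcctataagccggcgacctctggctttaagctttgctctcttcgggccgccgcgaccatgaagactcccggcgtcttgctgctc
Capn3 upstream start, chr2:120463343-120463642, strand plus: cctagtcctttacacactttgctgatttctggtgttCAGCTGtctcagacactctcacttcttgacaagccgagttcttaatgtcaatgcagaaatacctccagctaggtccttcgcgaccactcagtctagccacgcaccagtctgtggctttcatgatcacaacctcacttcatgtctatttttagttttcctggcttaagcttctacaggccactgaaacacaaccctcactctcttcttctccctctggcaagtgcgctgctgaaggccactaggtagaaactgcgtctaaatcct
Capn3 downstream start, chr2:120476659-120476958, strand plus: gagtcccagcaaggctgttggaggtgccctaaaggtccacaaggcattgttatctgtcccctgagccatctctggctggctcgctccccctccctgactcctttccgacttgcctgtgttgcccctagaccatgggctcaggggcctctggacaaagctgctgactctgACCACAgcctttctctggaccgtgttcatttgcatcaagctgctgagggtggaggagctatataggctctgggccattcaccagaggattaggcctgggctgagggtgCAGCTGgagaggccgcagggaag

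CACGTG was found in the windows of Ctsl, with its first base 236 bases upstream of the start, and of Ctsd, 245 and 98 bases upstream. Windows holding it made up 7.15% of the 32851 RefSeq windows. By gene, it was found for 2 of 9 members (22.2%), 3 of 6 other cathepsins and legumain (50%), 8 of 29 hydrolase and membrane genes (27.6%), 4 of 11 pump subunits (36.4%) and 4 of 10 sorting and TFE factor genes (40%), against 8.09% of 27025 genes and 0 of 11 other calpain genes. TGTGGT, held by 16.8% of windows, was found as its reverse complement ACCACA 81 bases upstream of the downstream Capn3 start, and in no other member window. CAGCTG, held by 16.3% of windows, was found for Ctsd, Ctss, Capn3 and Cast. GTAAACA, held by 3.65% of windows, was found in none of the 14. Such a match is a description of the letters in these windows and not of binding. Ctsk and Ctss are neighbours on chromosome 3.

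The arrays had been brought to one scale before deposit, with the same 2% trimmed mean of 2500.02 on each, and their median signals lay between 442.5 and 604.6. All 21 probe sets of the members were above their array's median on at least 2 arrays and were tested. Signals of bacterial trp control probe sets, which detect no mouse RNA, ranged from 13.8 to 440 and mark the background; only Ctsb probe set 1444987_at had arrays within this range, all of them innervated. The brightest Runx1 probe set read 178.9 to 519.1 in innervated control and 23499 to 25898 in denervated control muscle, and 20403 to 23185 in denervated mutant muscle, so this probe set does not show the deletion. Of 21 macrophage and leukocyte markers, 10 were higher and 0 lower in denervated than in innervated control muscle, and their summed signal rose from 42370 to 54489 in innervated control to 113590 to 157731 in denervated control, against 35325 to 39389 and 137923 to 153663 in the mutant. Summed signals of 12 fast fibre markers were 2560670 to 2910170 in innervated control and 1684570 to 2395620 in denervated control. None of these 12 markers lay within the background range. Spike-in probe sets, those of the BioB, BioC, BioDn and CreX hybridisation controls, averaged 14.02 on the log2 scale in innervated and 13.37 in denervated arrays. Centring arrays on them moves the median change of all genes after denervation from -0.01 to 0.82 in control and from -0.01 to 0.46 in the mutant. Of the genes called, 52.4% are higher in control and 54.6% in the mutant as deposited, 95.05% and 89.1% with spike-in centring, and 60.1% and 81.0% with arrays centred on their medians. All changes are therefore relative to the total signal of each array.

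**Figure D1:**
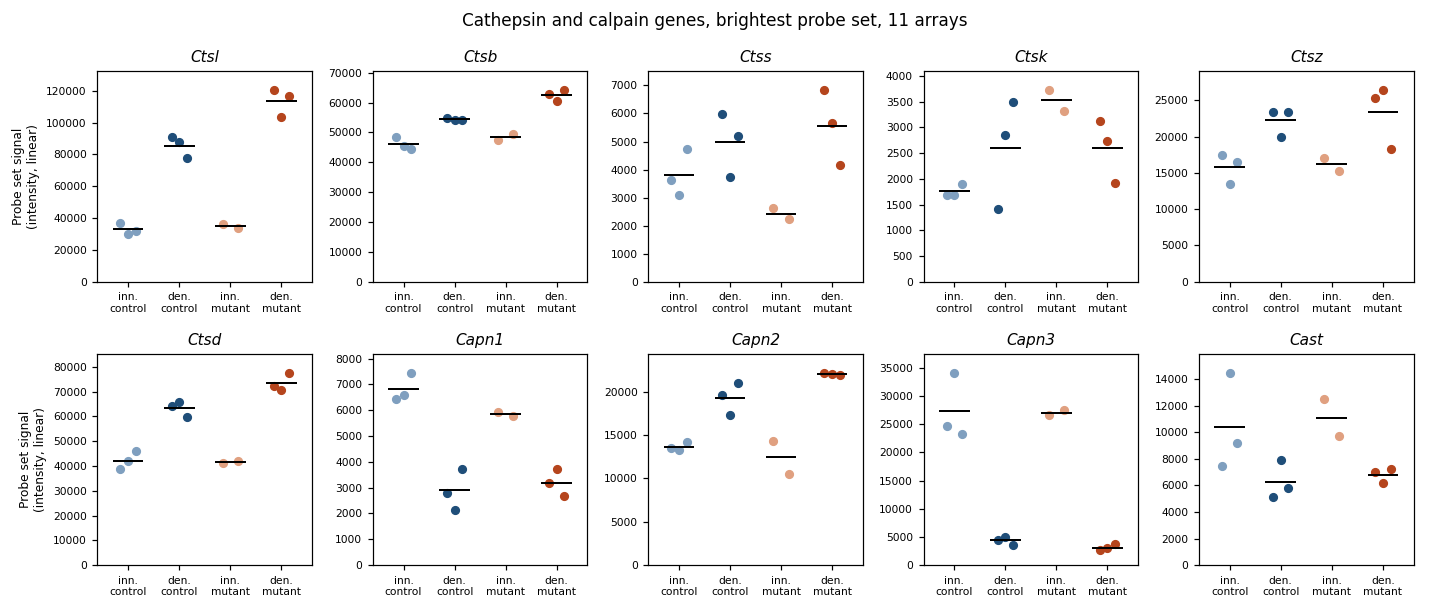
Signal of the brightest probe set of each of the 10 genes on each of the 11 arrays (linear scale from 0, in the units of the deposited table), by group; points are arrays and bars are group means. Ctsl and Ctsd lie higher and Capn1 and Capn3 lower on all denervated arrays than on all innervated ones, whereas the Cast and Ctsk groups overlap.

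As deposited, denervation changed most members in control muscle, and in opposite directions. By the brightest probe set of each gene, 4 of 10 members rose (Ctsl, Ctsz, Ctsd and Capn2), 3 fell (Capn1, Capn3 and Cast) and 3 did not pass (Ctsb, Ctss and Ctsk), at a limma adjusted p of 0.05. Over all 12214 genes tested, 34.4% passed, 18% as higher and 16.4% as lower. In the mutant 5 members rose (Ctsl, Ctsb, Ctss, Ctsd and Capn2), 2 fell (Capn1 and Capn3) and 3 did not pass (Ctsk, Ctsz and Cast), against 30.5% of all genes, 16.7% higher and 13.8% lower. The median log2 change of the 10 members was 0.42 in control and 0.44 in mutant muscle, while the median of all genes was -0.01 in both. Both comparisons use a shared fit but separate arrays. By class, 3 of 6 cathepsins rose in control and 4 of 6 in the mutant with none lower, whereas the calpains split into 1 that rose and 2 that fell in each genotype. By probe set, 8 of 21 were higher, 8 lower and 5 did not pass in control, against a background of 29.3% of probe sets called (14.9% higher and 14.4% lower); in the mutant 9 were higher, 4 lower and 8 did not pass, against 26.3% (13.1% higher and 13.3% lower). No array of one innervation state overlapped the other for 5 members that were higher and 2 that were lower in denervated control muscle (24.1% and 22.6% of all genes), and for 6 higher and 4 lower in the mutant (31.2% and 29.5%). Without denervated control 3, the array with the differing time in its note, the calls in control fell from 7 to 4 members (Ctsl and Ctsd higher, Capn1 and Capn3 lower). Over all 12214 genes the calls fell from 4202 to 3741. With spike-in centring 7 members were higher in control and 1, Capn3, was lower, against 60.5% and 3.15% of all genes. The split into rises and falls thus depends on the scaling.

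**Figure D2:**
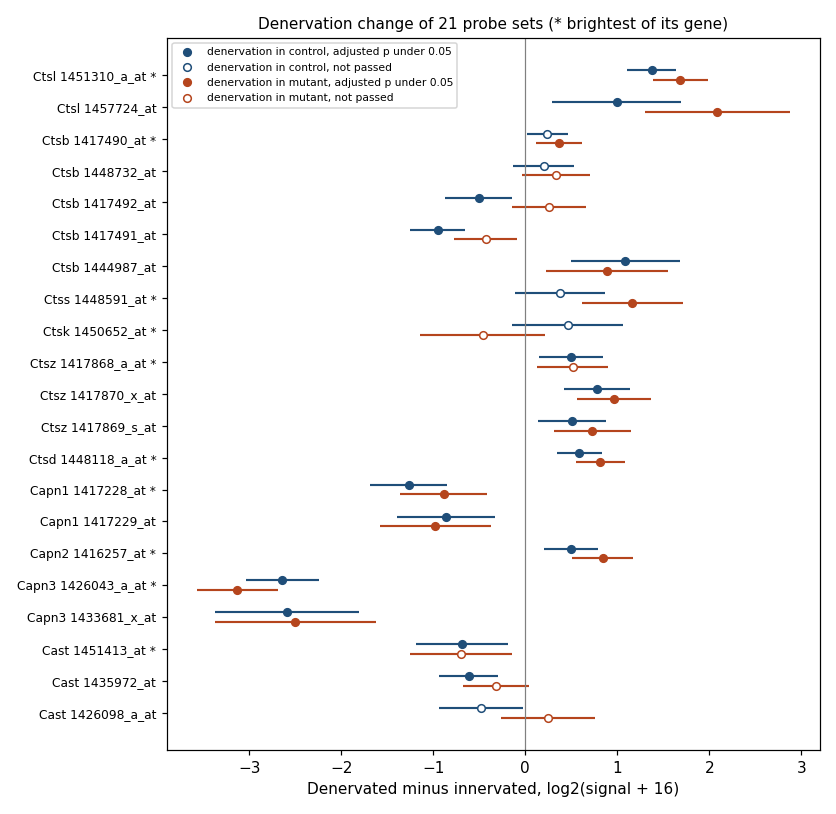
Log2 change of signal (denervated minus innervated) with its 95% confidence interval for the 21 probe sets, in control (blue) and mutant (red); filled points have a limma adjusted p below 0.05. The Capn3 probe sets lie furthest below 0, the highest point in each genotype is a Ctsl probe set, and the 5 probe sets of Ctsb lie on both sides of 0; with spike-in centring the control changes of the brightest Cast probe set, of Cast 1435972_at and of Ctsb 1417492_at turn positive.

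Ctsl, the gene of cathepsin L, had the largest rise among the brightest probe sets of the members. Its brightest probe set (1451310_a_at) read 36927, 30266 and 31829 on the innervated control arrays and 90744.5, 88033 and 77548 on the denervated control arrays. In the mutant it read 36598 and 33978 when innervated and 120442, 103720 and 116808 when denervated. No denervated array overlapped an innervated one in either genotype. The group means were 33007 ± 3483 (SD, n = 3) and 85442 ± 6970 (SD, n = 3) in control, a rise of 2.59-fold (1.37 ± 0.12 SE on the log2 scale, adjusted p = 3.38e-06 with limma). Mutant means were 35288 ± 1852 (SD, n = 2) and 113656 ± 8795 (SD, n = 3), a rise of 3.22-fold (1.69 ± 0.14, adjusted p = 2.23e-06). The dimmer probe set 1457724_at was higher by 0.99 in control (adjusted p = 0.0358) and by 2.09, or 4.25-fold, in the mutant (adjusted p = 0.00102). The control call of this second probe set was lost without innervated control 2 or 3, denervated control 2 or 3 or denervated mutant 3 (adjusted p = 0.0503 to 0.121). The summed macrophage and leukocyte signal was higher in the same arrays, where 10 of 21 markers passed in control, and its part in the Ctsl result was not tested. In whole muscle, a change in the number of cells of a type and a change in RNA per cell cannot be told apart.

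Ctsd, the gene of cathepsin D, the aspartic protease that also processes other cathepsins, rose less and with little spread. Its single probe set read 38614, 42164 and 45901 in innervated control and 64373, 65963 and 59839 in denervated control muscle. The mutant arrays read 41323 and 42218 when innervated and 72463, 70784 and 77488 when denervated. The groups were again fully separate. The rise was 1.50-fold in control (0.59 ± 0.11, adjusted p = 0.00142) and 1.76-fold in the mutant (0.82 ± 0.12, adjusted p = 0.000379).

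Ctsz, the gene of cathepsin Z, a carboxypeptidase, rose in control by all 3 of its probe sets. The brightest read 17477, 13510 and 16439 in innervated control and 23333, 19951 and 23369 in denervated control muscle, without overlap. Mutant arrays read 17024 and 15284 when innervated and 25355, 26413 and 18235 when denervated, also without overlap, with denervated mutant 3 close to the innervated level. The change was 0.50 ± 0.16 in control (1.41-fold, adjusted p = 0.0338) and 0.51 ± 0.18 in the mutant, where it missed the threshold (adjusted p = 0.0512). The other probe sets gave 0.78 and 0.51 in control (adjusted p = 0.0029 and 0.0415) and 0.96 and 0.73 in the mutant (adjusted p = 0.00189 and 0.0144). The control call of the brightest probe set depended on single arrays: it was lost without innervated control 2 or 3 or denervated control 1 or 3 (adjusted p = 0.0911, 0.054, 0.0995 and 0.0908). The control call of 1417869_s_at was lost without innervated control 1 or 2, denervated control 1 or 3 or any denervated mutant array (adjusted p = 0.0572 to 0.144), and its mutant call without innervated mutant 2 (adjusted p = 0.124). Without innervated control 2 or denervated mutant 3 the mutant change of the brightest probe set passed (adjusted p = 0.028 and 0.0157).

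Ctss encodes cathepsin S, best known from antigen-presenting cells, where it processes the invariant chain. Its signal was 3632, 3092 and 4749 in innervated control and 5993, 3742 and 5211 in denervated control muscle, and these groups overlapped (0.38 ± 0.23, adjusted p = 0.242); with spike-in centring the change was 1.20 and passed (adjusted p = 0.00258). In the mutant it was 2615 and 2248 when innervated and 6839, 5665 and 4175 when denervated, with no overlap, a rise of 2.24-fold (1.16 ± 0.25, adjusted p = 0.00437). The interaction, which is the mutant change minus the control change, was 0.79 ± 0.34 and did not pass (adjusted p = 0.600), so the denervation changes are not shown to differ. Of the 21 macrophage and leukocyte markers, 16 rose in mutant muscle against 10 in control, and 0 fell in either. The lower summed marker signal of the innervated mutant arrays, 35325 and 39389 against 42370 to 54489 in innervated control, ran with the lower Ctss signal there. The part of these cells in the Ctss result was not tested.

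Ctsk, the gene of cathepsin K, the collagen-degrading protease of osteoclasts and fibroblasts, had no denervation change that passed as deposited. Its signal was 1687, 1697 and 1894 in innervated control but 1418, 2859 and 3504 in denervated control muscle, where the 3 arrays lay on both sides of the innervated ones (0.46 ± 0.28, adjusted p = 0.249). Without denervated control 1, the low array, the change was 0.84 and passed (adjusted p = 0.0125), as did the 1.29 that spike-in centring gave (adjusted p = 0.00267). In the mutant the signal was 3729 and 3319 when innervated and 3119, 2746 and 1926 when denervated (-0.46 ± 0.31, adjusted p = 0.298). The innervated mutant arrays were the highest of the innervated arrays. The summed signal of 9 fibroblast markers was also higher there, at 401002 and 413678 against 269658 to 367355 in innervated control muscle. From innervated to denervated control muscle it did not follow the mean of Ctsk, which was higher after denervation while the sum was 223386 to 303870. Within denervated control arrays 1, 2 and 3 the sum was 223386, 251991 and 303870, in the order of Ctsk. Denervated mutant arrays 1, 2 and 3 had 352652, 310536 and 236488, also in the order of Ctsk. Innervated control 3 had the highest Ctsk of its group but the lowest sum, 269658. The part of the fibroblast markers in the Ctsk values was not tested.

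**Figure D3:**
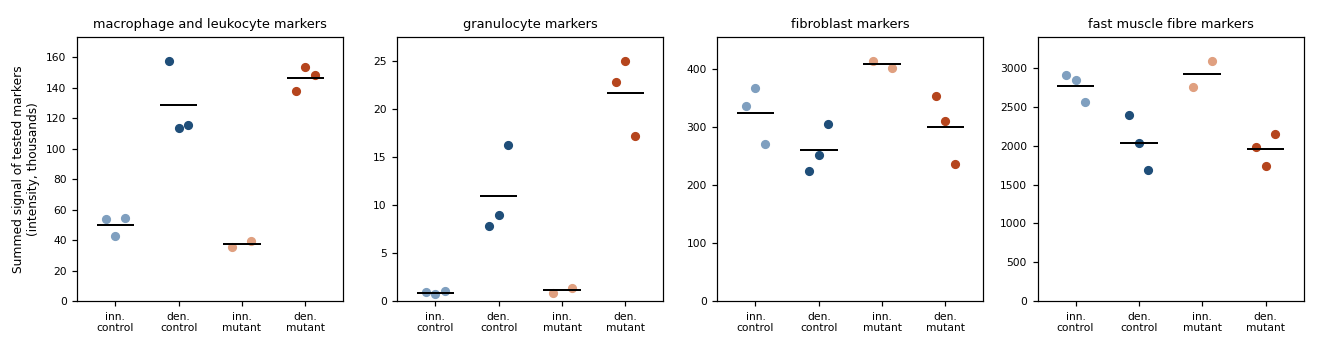
Summed signals (linear scale) of the macrophage and leukocyte, granulocyte, fibroblast and fast muscle fibre markers on each array, by group. Macrophage and leukocyte sums are 42370 to 54489 in innervated and 113590 to 157731 in denervated control arrays, and the fibroblast sums of the 2 innervated mutant arrays exceed all others.

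Ctsb, the gene of cathepsin B, an abundant lysosomal cysteine protease, gave different answers from its 5 probe sets. The brightest, 1417490_at, read 48601, 45499 and 44624 in innervated control and 54938, 54308 and 54172 in denervated control muscle. It read 47601 and 49538 in innervated mutant and 62882, 60391 and 64231 in denervated mutant muscle. The denervated arrays lay above the innervated ones in both genotypes, yet the change was small in control (0.24 ± 0.10, adjusted p = 0.103) and passed as deposited in the mutant (0.36 ± 0.11, 1.29-fold, adjusted p = 0.0331). In control it passed with quantile scaling (0.35, adjusted p = 0.0116) and with spike-in centring (1.07, adjusted p = 0.000189). The mutant call was lost when any 1 of the 5 mutant arrays was left out (adjusted p = 0.0667 to 0.144) and with the replicate number as a block (0.37, adjusted p = 0.0755). Probe set 1448732_at did not pass as deposited in either genotype (0.20 and 0.34, adjusted p = 0.369 and 0.167). With spike-in centring it passed in control (1.03, adjusted p = 0.000144) and in the mutant (0.81, adjusted p = 0.00492). It also passed in the mutant with arrays centred on their medians (0.64, adjusted p = 0.0151).

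The remaining Ctsb probe sets moved in opposite directions in control muscle. Probe set 1417491_at fell from 4327, 5285 and 4602 to 2525, 2367 and 2409, a 1.93-fold lower level (-0.95 ± 0.14, adjusted p = 0.000206), and spike-in centring left -0.12 of this (adjusted p = 0.545). Probe set 1417492_at fell from 6251, 8330 and 5373 to 4667, 4119 and 5080 (-0.50, adjusted p = 0.0379), a call that was lost with the replicate block (adjusted p = 0.0521) and turned to 0.32 with spike-in centring. The dim probe set 1444987_at rose from 277.6, 386 and 313.7 to 761.1, 659.3 and 692.3, and was at least 1.58-fold higher (adjusted p = 0.00919); all its innervated arrays lie within the range of the trp controls, so the fold is a lower bound against the top of that range. In the mutant 1417491_at read 4368 and 4559 when innervated and 3113, 3111 and 3717 when denervated (-0.43, adjusted p = 0.0575), and passed without innervated control 2 (adjusted p = 0.0383). There 1444987_at rose from 290.5 and 325.6, again within the background range, to 595.5, 634.4 and 519.7, at least 1.31-fold (adjusted p = 0.0496), a call that was lost without innervated control 3, any denervated control array or any mutant array (adjusted p = 0.0566 to 0.168). Mutant signals of 1417492_at did not pass as deposited (0.26, adjusted p = 0.337) but did with spike-in centring (0.73, adjusted p = 0.0108). In control the call of 1417492_at was also lost without innervated control 1 or 2, denervated control 1 or 2 or denervated mutant 2 or 3 (adjusted p = 0.0525 to 0.131). Opposite calls between probe sets of a gene were rare, at 47 of the 5846 genes with 2 or more tested probe sets (0.804%), Ctsb among them, where the higher call is that of the dim probe set alone. A ratio between probe sets on the same array does not depend on a shift common to that array, though quantile scaling can change it. Relative to the innervated control mean, the log2 ratio of 1417491_at to 1417490_at was -1.22 to -1.15 on the denervated control arrays and -1.04 to -0.82 on the denervated mutant arrays, against -0.20 to 0.18 in innervated control. For 1417492_at over 1417490_at it was -0.90 to -0.59 in denervated control but -0.27 to 0.04 in denervated mutant muscle, which overlaps the innervated range of -0.23 to 0.37. The positions of these probe sets within the gene are not used here, so which transcript each one detects was not tested.

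**Figure D4:**
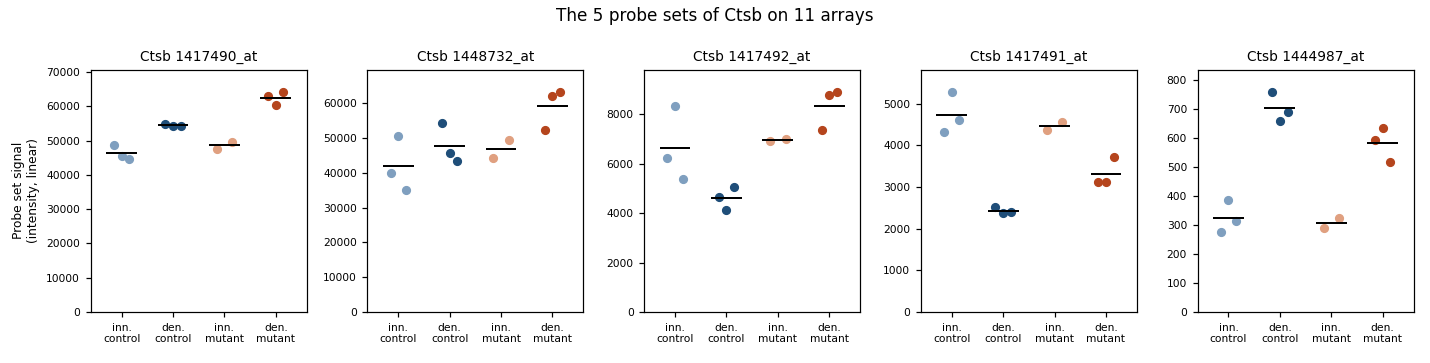
Signals of the 5 Ctsb probe sets on each array (linear scale from 0, one panel each), by group, with bars at the group means. Probe set 1417491_at is lower and 1444987_at higher on all denervated control arrays, while 1417492_at reads 4119 to 5080 in denervated control and 7358 to 8916 in denervated mutant muscle.

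As deposited, Capn3 showed the largest change among the members; with spike-in centring its control change was -1.81 and that of Ctsl 2.20. Its brightest probe set (1426043_a_at) read 24699, 34039 and 23330 in innervated control and 4412, 5064 and 3594 in denervated control muscle. In the mutant it read 26555 and 27513 when innervated and 2596, 3058 and 3668 when denervated. Every denervated array lay far below every innervated one. The means of 27356 ± 5828 (SD, n = 3) and 4357 ± 736.5 (SD, n = 3) gave a 6.23-fold lower level in control (-2.64 ± 0.18, adjusted p = 3.66e-07). In mutant muscle the level was 8.75-fold lower after denervation (-3.13 ± 0.21, adjusted p = 3.55e-07). The second probe set, 1433681_x_at, had a 6.03-fold lower level in control (-2.59, adjusted p = 0.000138) and fell by 2.50 on the log2 scale in the mutant (adjusted p = 0.000575). For comparison, the 12 fast fibre markers had a median of -0.44 in control, where 9 fell, and of -0.57 in the mutant, where 11 fell; without denervated control 3, only 2 fell in control, and with spike-in centring 0 fell in either genotype (medians of 0.39 and -0.10). Their part in the Capn3 result was not tested.

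Capn1 and Capn2, the catalytic subunits of the 2 ubiquitous calpains, moved in opposite directions. Capn1 read 6449, 6589 and 7435 in innervated control and 2795, 2134 and 3742 in denervated control muscle. In the mutant it read 5942 and 5767 when innervated and 3167, 3706 and 2679 when denervated, so that the groups were separate in both genotypes. It was 2.41-fold lower after denervation in control (-1.27 ± 0.19, adjusted p = 0.000284) and 1.85-fold lower in the mutant (-0.89 ± 0.22, adjusted p = 0.00895). Its other probe set fell too (-0.86 and -0.98, adjusted p = 0.0189 and 0.0201), although with spike-in centring these were -0.03 and -0.50 (adjusted p = 0.912 and 0.188). With arrays centred on their medians neither mutant call held (adjusted p = 0.0984 and 0.0731). With spike-in centring the brightest probe set gave -0.44 in control (adjusted p = 0.134) and -0.41 in the mutant (adjusted p = 0.285), and without innervated mutant 1 the mutant call was lost (adjusted p = 0.0577). The calls of the other probe set were lost without innervated control 2 or denervated control 3 in control (adjusted p = 0.0614 and 0.0787), and without either innervated mutant array or denervated mutant 1 or 3 in the mutant (adjusted p = 0.0632 to 0.095).

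Capn2 read 13462, 13297 and 14229 in innervated control and 19662, 17269 and 21022 in denervated control muscle. It read 14375 and 10538 in innervated mutant muscle and 22150, 22024 and 21951 in denervated mutant muscle, 3 nearly equal values above all others. It rose 1.41-fold in control (0.50 ± 0.14, adjusted p = 0.0148) and 1.79-fold in the mutant (0.84 ± 0.15, adjusted p = 0.00132). Without denervated control 3 the control change was 0.43 and did not pass (adjusted p = 0.0555). The log2 ratio of Capn2 to Capn1 on the same array cancels a shift common to that array, though not quantile scaling. It rose relative to the innervated control mean by 1.48 to 2.01 on the denervated control arrays and by 1.56 to 2.03 on the denervated mutant arrays. Innervated arrays lay between -0.13 and 0.27. The ratio shows unequal change of the subunits and not the level of either.

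Cast, whose product inhibits both ubiquitous calpains, fell in control by 2 of 3 probe sets as deposited, although spike-in centring turned both (to 0.14 and 0.21). The brightest probe set (1451413_at) read 7476, 14458 and 9164 in innervated control and 5129, 7953 and 5782 in denervated control muscle, and 1 denervated array lay above the lowest innervated one (-0.69 ± 0.23, adjusted p = 0.0379). In the mutant it read 12525 and 9712 when innervated and 7030, 6152 and 7237 when denervated, without overlap, and did not pass (-0.70 ± 0.26, adjusted p = 0.0612). Probe set 1435972_at read 8031, 7569 and 9224 in innervated control and 4497, 5579 and 6194 in denervated control muscle, without overlap (-0.62, adjusted p = 0.00696); its mutant change was -0.32 (adjusted p = 0.178). Probe set 1426098_a_at did not pass as deposited in control (-0.48, adjusted p = 0.108) or in the mutant (0.24, adjusted p = 0.480). In control it passed with the replicate block on the control arrays alone (adjusted p = 0.0318). With spike-in centring it was higher after denervation in the mutant and passed (0.72, adjusted p = 0.0306). The control call of the brightest probe set was lost without innervated control 2 or 3, denervated control 1 or 3 or denervated mutant 1 or 3 (adjusted p = 0.0514 to 0.141). The mutant change passed without innervated control 1 or 2 (adjusted p = 0.0444 and 0.015). The log2 ratio of Capn2 to Cast, relative to the innervated control mean, was 0.66 to 1.48 in denervated control and 1.15 to 1.38 in denervated mutant muscle, against -0.57 to 0.39 in innervated arrays.

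The comparison of mutant with control after denervation asks whether the levels in denervated muscle differ between the genotypes. By the brightest probe set, 0 of 10 members passed with limma, against 2.19% of all genes; 2 had an unadjusted p below 0.05, against 12.5% of all genes. Ctsl was higher in the mutant by 0.41 ± 0.12 (95% interval 0.15 to 0.68, adjusted p = 0.147) and Capn3 was lower by a log2 change of -0.49 ± 0.18 (adjusted p = 0.297). With spike-in centring, under which the median of all genes is -0.37, Capn3 alone passed (-0.87, adjusted p = 0.0105). Under that scaling 5.45% of all genes were lower and 0.295% higher. The 3 denervated mutant arrays lay wholly above the 3 denervated control arrays for Ctsl, Ctsb, Ctsd and Capn2, and wholly below for 0 members; over all genes 12.6% lay wholly above and 10.4% wholly below. Of 10 members, 9 had a positive difference as deposited and 1 (Ctsl, 0.03) with spike-in centring; the median was 0.16, against 0.01 for all genes, and -0.22 with spike-in centring, against -0.37. Of all genes called between genotypes after denervation, 47.9% were higher in the mutant as deposited, 5.13% with spike-in centring and 61.3% with arrays centred on their medians. Among the 21 probe sets, 1 passed, against 1.83% of all probe sets. This was Ctsb 1417492_at, with 4667, 4119 and 5080 in denervated control and 7358, 8799 and 8916 in denervated mutant muscle (0.85 ± 0.17, 1.81-fold, adjusted p = 0.0192). The call was lost with spike-in centring (0.47, adjusted p = 0.109) and without denervated control 1 or 2 or denervated mutant 2 or 3 (adjusted p = 0.0763 to 0.103). Ctsl 1457724_at passed without denervated mutant 2 (1.36, adjusted p = 0.0455).

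In innervated muscle 0 of 10 members and 0% of all genes passed with limma, while 2 members had an unadjusted p below 0.05, against 3.77% of all genes. Ctsk was 1.99-fold higher in the mutant (1.00 ± 0.31, adjusted p = 0.998), with both mutant arrays above the 3 control arrays. Ctss was lower (-0.63 ± 0.25, adjusted p = 0.998), with both mutant arrays below. Capn1 was also wholly lower; over all genes 7.61% lay wholly above and 8.24% wholly below. The interaction passed for 0 of 10 members, against 0.262% of all genes, and 2 had an unadjusted p below 0.05, against 8.16% of all genes. These were Ctss (0.79, given above) and Ctsk (-0.92 ± 0.42, adjusted p = 0.635).

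From the highest group mean to the lowest, Ctsl, Ctsb and Ctsz had the same order: denervated mutant, denervated control, innervated mutant, innervated control. Ctsd, Ctss and Capn2 differed from it only in that the innervated control lay above the innervated mutant. Capn3 had the reverse order to Ctsl, and Capn1 had its lowest mean in denervated control muscle. Ctsk and Cast had their highest means in innervated mutant muscle, and Cast its lowest in denervated control muscle. Neighbours of the same innervation in these orders did not differ at the adjusted threshold for any member.

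The genes around the members were followed with lists of the lysosome and of the calpain system. Over all genes tested, 18% were higher and 16.4% lower in control, and 16.7% and 13.8% in the mutant. With spike-in centring the control shares were 60.5% and 3.15%. Among 7 tested other cathepsins and legumain, 1 rose and 2 fell in control, with a median of -0.28. Legumain (Lgmn), the asparaginyl endopeptidase that matures cysteine cathepsins, rose 2.94-fold (adjusted p = 2.55e-06), while Ctso (-0.74, adjusted p = 0.00717) and Ctsa (-0.41, adjusted p = 0.0324) fell and Ctsf did not pass (-0.35, adjusted p = 0.0705); with spike-in centring 4 of 7 were higher and 0 lower, with a median of 0.54. As deposited, Lgmn was also the only gene of this list to pass between genotypes after denervation, 1.50-fold higher in the mutant (adjusted p = 0.0471). That call was lost with spike-in centring (0.20, adjusted p = 0.503) and without any 1 array other than innervated control 2 (adjusted p = 0.0554 to 0.217). Of 3 tested cystatins, inhibitors of cysteine cathepsins, 2 rose in control: Cst6 by 5.37-fold (adjusted p = 2.85e-07) and Cstb by 3.49-fold (adjusted p = 3.01e-05). Cst3 did not pass (-0.28, adjusted p = 0.355). In the mutant 1 of 7 and 2 of 3 genes of these lists rose and 0 fell.

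Other lysosomal genes were mixed, as were all genes, of which 18% rose and 16.4% fell in control. In the mutant 16.7% of all genes rose and 13.8% fell. Of 31 lysosomal hydrolases and membrane proteins, 5 rose, 2 fell and 24 did not pass in control, with a median of 0.06, near that of all genes. The acid alpha-glucosidase gene Gaa rose 2.13-fold (adjusted p = 1.57e-05), the sulfatase gene Galns 4.89-fold (adjusted p = 1.78e-05) and the beta-glucuronidase gene Gusb 2.22-fold (adjusted p = 4.36e-05), while the acid sphingomyelinase gene Smpd1 was 1.59-fold lower (adjusted p = 0.000518). Of 15 subunits of the vacuolar proton pump, which acidifies lysosomes, 6 rose and 1 fell (Atp6v0a2, -0.53, adjusted p = 0.0108), with a median of 0.37. Atp6v1a rose 4.59-fold (adjusted p = 3.43e-06), Atp6ap2 3.35-fold (adjusted p = 1.15e-06), Atp6v1h 2.32-fold (adjusted p = 0.000115) and Atp6v0d1 1.96-fold (adjusted p = 9.94e-05). Of 12 lysosomal sorting and TFE factor genes 2 rose and 2 fell, with a median of -0.07. The mannose 6-phosphate receptor genes M6pr (1.44-fold, adjusted p = 0.00504) and Igf2r (1.64-fold, adjusted p = 0.012) rose, and Tfeb, a transcription factor of lysosomal genes, was 1.69-fold lower (adjusted p = 0.00147), as was Gnptg, 1.61-fold lower (adjusted p = 0.0281). In the mutant 6 of 31 hydrolase and membrane genes rose and 2 fell, 7 of 15 pump subunits rose and 0 fell, and 2 sorting genes rose and 2 fell; Tfeb did not pass (-0.26, adjusted p = 0.262). Spike-in centring raises these counts in control to 26 of 31, 14 of 15 and 9 of 12 higher, with 0 lower; under that scaling 60.5% of all genes are higher, and Smpd1, Atp6v0a2, Tfeb and Gnptg do not pass.

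Of 7 other calpain genes tested, 1 rose and 2 fell in control: Capn15 by 0.55 (adjusted p = 0.0465), and Capn6 by -0.68 (adjusted p = 0.0121) and Capn7 by -0.52 (adjusted p = 0.0176). Capns1, the small subunit shared by calpain 1 and calpain 2, did not pass in control (0.38, adjusted p = 0.0875) but rose in the mutant (1.50-fold, adjusted p = 0.0275). In the mutant 2 of 7 rose and 2 fell. As deposited, 18% of all genes rose and 16.4% fell in control, and 16.7% and 13.8% in the mutant. With spike-in centring 4 of 7 were higher and 0 lower in control, against 60.5% and 3.15% of all genes. Capn9, Capn11, Capn13 and Capns2 lay within the background range on all arrays. Of 8 genes for calpain 3 anchoring and membrane repair, 2 rose and 3 fell in control, with a median of 0.11 that became -0.06 without denervated control 3. Dysf, the gene of the membrane repair protein dysferlin, rose 2.32-fold (adjusted p = 0.000179) and Anxa2 1.52-fold (adjusted p = 0.0152), while Ttn, the gene of titin, was 1.45-fold lower (adjusted p = 0.0044) and Anxa6 1.65-fold lower (adjusted p = 0.00727). In the mutant 1 rose and 2 fell. With spike-in centring 5 of 8 were higher and 0 lower in control, and Ttn and Anxa6 did not pass. As deposited, none of these 2 lists had a gene that passed between genotypes after denervation or in the interaction.

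**Figure D5:**
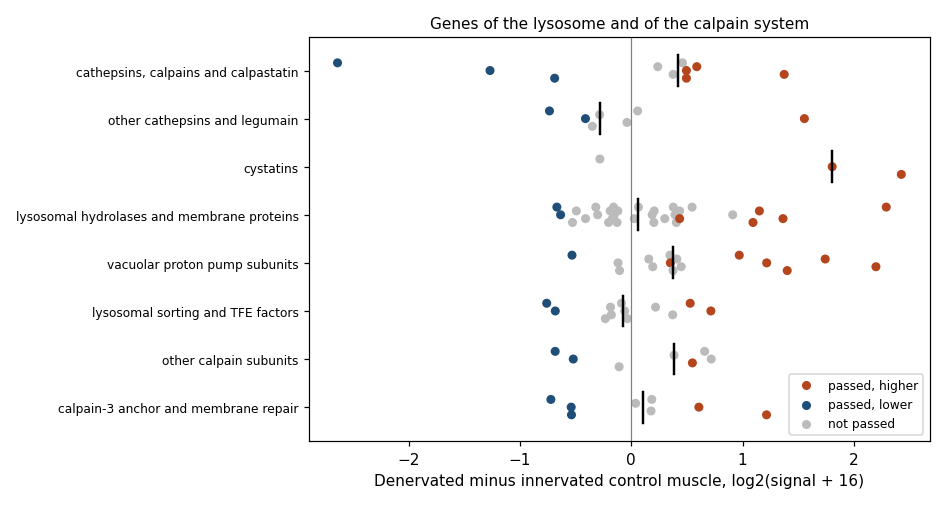
Log2 change after denervation in control muscle (denervated minus innervated, 11-array fit) for the 10 members and the tested genes of 7 further lists; each point is a gene and the black bar is the list's median. The members span -2.64 to 1.37 with a median of 0.42, and the pump subunits have a median of 0.37 against 0.06 for hydrolases and membrane proteins.

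Genes whose signals followed a member most closely were found by the root mean square distance of centred log2 signals over the 11 arrays, among 12213 other genes. For Ctsl they were Dbnl (0.13) and Pdpn (0.134), for Ctsd Clk2 (0.0688) and Copa (0.0808), for Ctsz Cdkn2aipnl (0.117) and Grn (0.117), and for Ctsb Map2k1 (0.0395) and Prkcsh (0.0691). Ctss was nearest to Myf5 (0.173) and Cybb (0.188), and Ctsk to Serpinf1 (0.26) and Gpc3 (0.264). Among the calpains, Capn1 was nearest to Glt28d2 (0.102) and Fam189a2 (0.111), Capn2 to Ap4e1 (0.076) and Dpy19l1 (0.0886), and Capn3 to Lrrc39 (0.184) and Lynx1 (0.225). Cast was nearest to Trpm7 (0.138) and Zfp958 (0.146). Distances are in log2 units and grow with the size of a member's own changes, so they are not comparable between members.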

How the data were processed

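The deposited table held 1 signal per probe set and array, an intensity on a linear scale, which the authors had scaled so that every array has a 2% trimmed mean of 2500.02. Their software was not given in the sources used here. Signals were used as log2(value + 16). A probe set was tested where 2 or more of the 11 arrays read above that array's median; with 64 control probe sets removed, 26170 were tested. A gene was represented by its brightest kept probe set; of the annotated probe sets 34958 had 1 symbol and 932 several, and 34754 gene IDs matched RefSeq with 0 symbols changed.

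Group means were fitted to all 11 arrays with limma 3.58.1 in R 4.3.3 (eBayes with trend), with Benjamini-Hochberg adjustment over all kept probe sets at 0.05; the fit was tested on simulated data. Fold changes are on the log2(value + 16) scale. With 2 or 3 arrays a group, their number limits the precision. Groups came from the sample titles. The members and lists were chosen with earlier results of these data known. All members were named, with at most 4 genes of each list, those with the smallest p in control, and the 2 nearest profiles of each member; Atp6v0a2 and Capns1 in the mutant were named after their values were seen.

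Innervated and denervated control arrays of equal replicate number had correlated deviations from their group means (r = 0.11, 0.22 and 0.30 across probe sets). In the other pairs of groups r was -0.18 to 0.10. Correlations between arrays of unequal number were not computed, so whether the numbers pair the control arrays was not tested. The labels do not explain the numbers, and the replicate block was run as an alternative only. Alternatives were other pseudocounts, no filter, median, quantile and spike-in scaling, a fit without trend, only the groups compared, the replicate block, the mean of a gene's probe sets and each array left out.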

Additional observations from a re-analysis of the deposited data

Results flagged for a closer look

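The denervation change of Ctsb probe set 1417492_at was larger in mutant than in control muscle by 0.76 on the log2 scale. It was flagged because all denervated control arrays lay below all innervated control arrays, and all denervated mutant arrays above all innervated mutant arrays. Over all genes, 22.6% lay wholly lower after denervation in control and 31.2% wholly higher in the mutant, which has 2 innervated arrays. The share with both was not counted. The test of the difference, limma's interaction, did not pass (adjusted p = 0.385). The macrophage and leukocyte marker Ptprc, the gene of CD45, had an interaction of 1.76 ± 0.29 that passed (adjusted p = 0.0259), the only gene of the lists used here to do so. That call was lost with spike-in scaling (1.41, adjusted p = 0.136) and without innervated control 1 or 3, denervated control 2, either innervated mutant array or denervated mutant 2 (adjusted p = 0.0522 to 0.0987). It did not pass in control (-0.04, adjusted p = 0.898) and rose 3.29-fold in the mutant (adjusted p = 7.41e-05), where its innervated level was lower than in control by a log2 change of -1.51 (adjusted p = 0.15).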

How the results depend on the processing

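Ctsl, Ctsd and Capn3 kept their calls for denervation in control, and Ctsl, Ctss, Ctsd, Capn2 and Capn3 in the mutant, in every alternative run. Leaving out 1 array in turn gave 4 to 7 members called for denervation in control and 5 to 9 in the mutant; the other alternatives gave 5 to 8 and 6 to 9. With the replicate block 7 members were called in control (7 with the control arrays alone) and 6 in the mutant, where Ctsb was lost; among the brightest probe sets the block changed no other call. With spike-in scaling 1 member (Capn3) was called between genotypes in denervated muscle, against 0 as deposited. Over all genes 0.295% were higher and 5.45% lower there. The denervation changes in control of Cast (0.14), Cast 1435972_at (0.21) and Ctsb 1417492_at (0.32) turned positive under this scaling. The control count became 8, 7 higher and 1 lower, with Ctsb (1.07), Ctss (1.20) and Ctsk (1.29) gained. Over all genes 60.5% were then higher and 3.15% lower. A sign change of a value that passed in neither setting was not counted. Over the brightest probe sets of the members, 1005 values under an alternative kept their side of the threshold, 28 lost the call, 16 gained it and 1 turned. The 1005 include values that changed sign but passed in neither setting. Spike-in scaling moves the calls by adding one shift per array. The spike-ins are hybridisation controls, so this scaling is not a measure of the RNA per muscle. Which scaling is nearer to the RNA per muscle was not tested. Signals near the background limit Ctsb 1444987_at, whose innervated arrays lie within the range of the trp controls.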

Other observations

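Markers of other cell types in the muscle changed in ways not described above. In whole muscle, a change in cell number and a change in RNA per cell cannot be told apart. As deposited, 18% of all genes were higher and 16.4% lower in control, and 16.7% and 13.8% in the mutant. Among granulocyte markers S100a8, a calcium-binding protein of neutrophils, was at least 21.4-fold higher after denervation in control muscle (limma adjusted p = 4.86e-08), a lower bound because its innervated arrays (158 to 307.3) lie within the background range of the trp controls. S100a9 lay within that range on all control arrays and did not pass (1.14, adjusted p = 0.425). Ngp did not pass either, with a change in the other direction (-0.37, adjusted p = 0.476). Of 7 listed granulocyte markers 3 were tested, and S100a8 alone passed in control. It read 7034 to 15583 in denervated control muscle, where the summed granulocyte signal was 7756 to 16188. The macrophage lysosomal glycoprotein gene Cd68 rose 14.8-fold (adjusted p = 2.36e-08) and Lgals3, the gene of galectin 3, 14.9-fold (adjusted p = 2.65e-06), while Mrc1 (2.15-fold, adjusted p = 7.87e-05) and Csf1r (1.96-fold, adjusted p = 0.00026) rose less. Of 8 endothelial markers 6 fell in control and 3 in the mutant, and 0 rose; Pecam1 was 1.96-fold lower in control (adjusted p = 0.000583). With spike-in scaling 0 endothelial markers fell and 1 rose in each genotype. Of 9 fibroblast markers 0 passed in control and 1 fell in the mutant; with spike-in scaling 5 rose in control and 0 passed in the mutant.

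Of 5 tested Schwann cell markers, the myelin genes Mbp (4.78-fold lower, adjusted p = 2.15e-06) and Pmp22 (2.49-fold lower, adjusted p = 2.2e-05) fell in control and the neurotrophin receptor gene Ngfr rose 4.23-fold (adjusted p = 6.13e-06). With spike-in scaling Pmp22 did not pass (-0.49, adjusted p = 0.0697). Among 6 satellite cell and myoblast markers 3 rose, 1 fell and 2 did not pass in control. Myod1 rose by 3.89-fold (adjusted p = 0.00027), Cdh15 by 2.09-fold (adjusted p = 0.000294) and the fusion gene Mymk by at least 3.83-fold (adjusted p = 0.00128). Chodl fell (-0.85, adjusted p = 0.0361), though with spike-in scaling it was -0.02 and did not pass. Mymk was at least 3.83-fold lower in denervated mutant than in denervated control muscle (adjusted p = 0.00315), where both folds are bounds because its innervated control and denervated mutant arrays lie within the background range; it was the only gene of these marker lists to pass between genotypes after denervation.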
